A study of Mus musculus with 6 samples.

Results

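CXC chemokine ligands were examined in mouse liver tumors as the rows of the count matrices whose gene symbol is Cxcl1, Cxcl2, Cxcl3, Cxcl9, Cxcl10, Cxcl12 or Cxcl16, which are 7 of the 34099 genes. Their UMIs were summed per mouse over each annotated cell type and each numbered cluster. A UMI (unique molecular identifier) is a random tag that lets each captured RNA molecule be counted once. The tissue was liver tumor of wild type male C57BL/6J mice, in young adulthood, that carried orthotopic tumors of H22, a murine hepatocellular carcinoma (HCC) line grown as pooled ascites before implantation. The 3 stress mice had been exposed to chronic unpredictable mild stress (CUMS), a series of changing daily stressors, and the 3 control mice received the same tumor cells under standard housing. Every tumor therefore came from 1 transplanted line, and a separate 10x Genomics library was made for each mouse.

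In the mean over the 6 mice, Cxcl2 and Cxcl3 were at their highest level in inflammatory myeloid cells. Cxcl9, Cxcl10 and Cxcl16 were highest in the cells annotated as monocytes, and Cxcl1 and Cxcl12 in hepatic stellate cells (HSCs). For Cxcl1, Cxcl9, Cxcl10 and Cxcl16 the range of the leading type overlapped that of the next, and by the share of thinned cells with a UMI dendritic cells (DCs) led for Cxcl9 and Cxcl16 and endothelial cells (ECs) for Cxcl10. Between stress and control mice, 3 of 41 tested pairs of ligand and cell type passed an adjusted p of 0.05, against 4.97% of all pairs of gene and cell type. Cxcl10 was higher under stress in the class of natural killer and T lymphocytes (NK/T cells) and in DCs, and Cxcl16 was higher in DCs. All 3 calls depended on single mice or on how the cells were grouped, as described with each.

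CXC chemokines are small secreted or membrane-bound proteins that steer leukocytes through G protein-coupled receptors. CXCL1, CXCL2 and CXCL3 carry the ELR motif, act on CXCR2 to draw neutrophils, and are classical NF-kB targets of inflamed myeloid and stromal cells. CXCL9 and CXCL10 are induced by interferon gamma and bring CXCR3-bearing T and NK cells into tissue. CXCL12, a product of stromal cells, retains cells through CXCR4 and is also bound by ACKR3, whereas CXCL16 is made as a transmembrane protein, can be shed by ADAM10, and binds CXCR6 on liver-resident lymphocytes.

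Of the 7 genes, 5 lie on chromosome 5 (GRCm38, GENCODE M21). Cxcl3 (chr5:90786103-90789600, plus strand), Cxcl1 (chr5:90891241-90893115, plus) and Cxcl2 (chr5:90903871-90905938, plus) span 119.8 kb, and Cxcl9 (chr5:92321347-92328079, minus) and Cxcl10 (chr5:92346638-92348889, minus) span 27.5 kb. Cxcl12 is at chr6:117168535-117181367 (plus) and Cxcl16 at chr11:70453983-70459984 (minus). The promoter sequences of the chromosome 5 ligands are shown because Cxcl2 with Cxcl3, and Cxcl9 with Cxcl10, had similar patterns over the clusters of cells. Each is the 250 bases before the RefSeq transcription start (GRCm38.p6), 5′ to 3′ on the strand of the gene, and the windows are chr5:90890995-90891244 for Cxcl1, chr5:90903649-90903898 for Cxcl2, chr5:90785851-90786100 for Cxcl3, chr5:92328080-92328329 for Cxcl9 and chr5:92348890-92349139 for Cxcl10. Capitals mark matches, on either strand, to the NF-kB site kappaB or to the interferon element ISRE, searched as GAAA repeated after a gap of 2 bases.
Cxcl1: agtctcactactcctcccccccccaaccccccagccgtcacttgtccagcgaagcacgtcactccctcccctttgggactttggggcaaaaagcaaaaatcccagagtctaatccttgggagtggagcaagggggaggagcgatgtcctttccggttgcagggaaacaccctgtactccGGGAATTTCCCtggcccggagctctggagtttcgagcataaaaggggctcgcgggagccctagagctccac
Cxcl2: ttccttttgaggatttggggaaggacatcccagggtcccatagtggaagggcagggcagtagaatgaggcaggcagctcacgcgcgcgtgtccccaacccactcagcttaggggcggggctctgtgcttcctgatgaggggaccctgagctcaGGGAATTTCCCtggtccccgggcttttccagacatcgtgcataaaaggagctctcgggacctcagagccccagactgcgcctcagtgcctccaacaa
Cxcl3: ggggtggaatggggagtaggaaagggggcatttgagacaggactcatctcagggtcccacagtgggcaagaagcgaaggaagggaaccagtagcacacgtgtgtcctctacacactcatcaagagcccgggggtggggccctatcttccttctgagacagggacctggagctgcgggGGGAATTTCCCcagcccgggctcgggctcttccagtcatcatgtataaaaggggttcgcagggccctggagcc
Cxcl9: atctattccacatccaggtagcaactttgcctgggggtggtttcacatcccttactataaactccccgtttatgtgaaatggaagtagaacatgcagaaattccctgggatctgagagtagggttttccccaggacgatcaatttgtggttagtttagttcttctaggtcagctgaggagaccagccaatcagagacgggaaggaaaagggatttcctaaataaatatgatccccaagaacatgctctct
Cxcl10: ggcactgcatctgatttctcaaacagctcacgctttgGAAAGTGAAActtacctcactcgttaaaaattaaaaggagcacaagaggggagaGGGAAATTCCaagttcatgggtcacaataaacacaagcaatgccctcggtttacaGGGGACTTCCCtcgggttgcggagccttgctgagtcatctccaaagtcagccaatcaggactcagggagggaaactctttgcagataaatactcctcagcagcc

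Cxcl1, Cxcl2 and Cxcl3 held the same kappaB match, GGGAATTTCC, beginning 71, 97 and 73 bases before the start, and a match on the other strand that overlapped it by all but its first base. In Cxcl10, kappaB matches began 159, 104 and 103 bases before the start, the last 2 overlapping, and the ISRE match GAAAGTGAAA began 213 bases before it. The windows of Cxcl9 and of Cxcl12 (chr6:117168285-117168534) held neither, and the interferon gamma element GAS, searched as TTCNNNGAA on both strands, was in none of the 6 windows. RefSeq promoters matched 6 of the 7 ligands. Among 32851 promoter windows of this length, 7.25% held a kappaB match, 2.98% an ISRE match and 7.02% a GAS match. A match describes the letters of the window and no binding was measured.

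The annotation held 58794 cells of 61374 barcodes in 10 cell types and 28 clusters, with 184798748 to 187728350 UMIs per control mouse and 149558935 to 158405366 per stress mouse. Control libraries were counted with Cell Ranger 9.0.0 and stress libraries with 7.1.0, per the matrix headers, so in every comparison below the effect of stress and that of the program version cannot be told apart. Pairs of libraries shared 13 to 40 cell barcodes, at most 0.424% of the smaller library. Marker genes were highest in the type they name for all markers of ECs, NK/T cells, B cells and HSCs, and for 6 of 7 in monocytes, 5 of 6 in DCs, 5 of 6 in neutrophils, 4 of 6 in inflammatory myeloid cells and 3 of 5 in tumor cells. In the cells annotated as monocytic myeloid-derived suppressor cells (M-MDSCs), 0 of 4 markers were highest, and Scrublet called 63.1% of them doublets against 3.11% to 6.38% of all cells of a library. Levels are given as CPM, where 1 CPM is 0.0001% of the UMIs of the cell type in a mouse. They compare cell types or mice for 1 ligand at a time, since UMIs are not scaled for transcripts of different ligands. Order across cell types is a description, because the types were defined from the same cells.

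**Figure D1:**
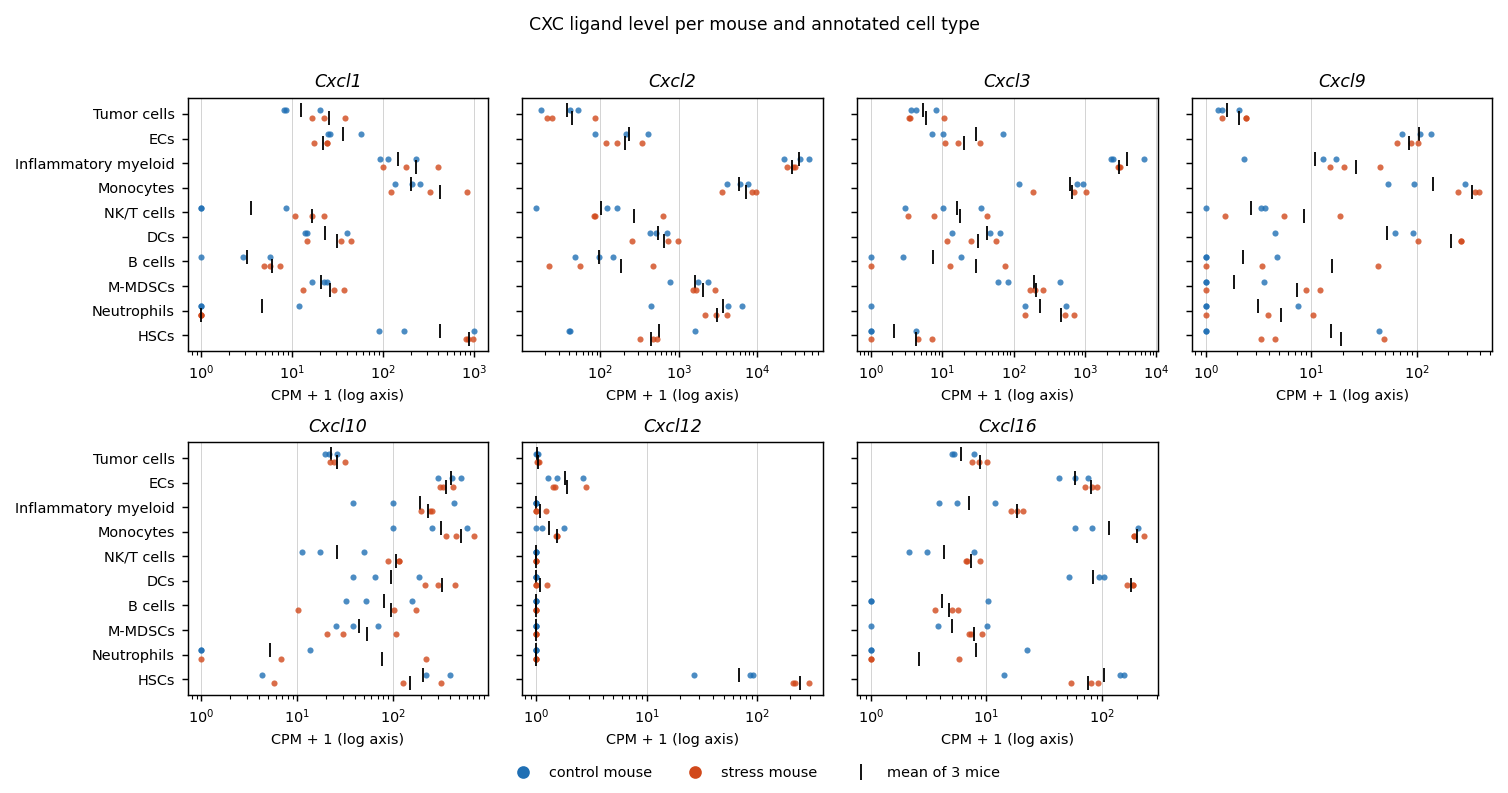
Levels of the 7 CXC ligands in the 10 annotated cell types, with CPM plus 1 on a log axis and each point the summed cells of 1 mouse (blue control, orange stress, black ticks the mean of the 3 mice of each group). Cxcl2 and Cxcl3 are highest in inflammatory myeloid cells, Cxcl12 stands above 20 CPM in HSCs only, and Cxcl9, Cxcl10 and Cxcl16 share monocytes, DCs and ECs.

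Cxcl2, a neutrophil attractant, was highest in inflammatory myeloid cells. Its level there was 22024, 35196 and 46056 CPM in control mice 1, 2 and 3 and 30100, 23979 and 28642 CPM in stress mice 1, 2 and 3. These levels did not overlap with those of monocytes, the next type, at 3599 to 9612 CPM. The range of neutrophils (450.1 to 6411 CPM) overlapped that of monocytes and that of M-MDSCs (773.5 to 2883 CPM), while monocytes and M-MDSCs did not overlap. With every cell thinned to 1000 UMIs, 97.4% of inflammatory myeloid cells (95% exact binomial interval 96.9% to 97.8%) and 69.3% of monocytes (68.1% to 70.5%) had a Cxcl2 UMI. B cells, which are not known as a source, had 6.44% (4.36% to 9.12%), NK/T cells 5.71% and tumor cells 3.53%, so no Cxcl2 level of NK/T cells above that of B cells is read from these UMIs. These intervals cover counting error only.

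Cxcl3, which shares the receptor and the gene cluster of Cxcl2, had the same order of leading cell types. Inflammatory myeloid cells held 2304, 2479 and 6676 CPM in the control mice and 2850, 3018 and 3073 CPM in the stress mice, again without overlap with monocytes at 116.5 to 1045 CPM. Control mouse 3 was high and the other 5 mice lay between 2304 and 3073 CPM. Among thinned inflammatory myeloid cells, 53.1% of those with a Cxcl2 UMI also had a Cxcl3 UMI, against 16.3% of those without, and in monocytes the shares were 19.3% and 2.6%. Among the 3 monocyte clusters both ligands were highest in cluster 13, which had the highest Arg1 level of the 3, at 6596 to 15300 CPM for Cxcl2 and 379.2 to 2398 CPM for Cxcl3.

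Cxcl1 had another distribution from its neighbors on chromosome 5. HSCs, the collagen-producing stromal cells of the liver, held 90.0, 1006 and 168.6 CPM in control mice and 973.1, 824.4 and 864.6 CPM in stress mice, and the 6 HSCs of control mouse 2, of which 4 were called doublets, gave the highest value. In control mice 1 and 3 the level in HSCs was below that in monocytes, at 208.9 and 253.7 CPM. Monocytes (120.7 to 826.4 CPM) and inflammatory myeloid cells (92.3 to 402.8 CPM) followed with overlapping ranges. At their own depth, a median of 1547 and 5291 UMIs, 6.67% of inflammatory myeloid cells and 15.3% of monocytes had a Cxcl1 UMI. The 2 shares are not compared, since the depths differ. In monocytes, 10% of the cells carried 95.7% of the Cxcl1 UMIs of that type.

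Cxcl9, the interferon gamma-induced ligand of CXCR3, was highest in monocytes (52.7 to 386.1 CPM), then in DCs (3.54 to 264.3 CPM) and ECs (63.4 to 134.3 CPM), and these 3 ranges overlapped. Inflammatory myeloid cells, the next type, stayed at 1.31 to 43.4 CPM. Cluster 11, the monocyte cluster richest in the complement gene C1qa, had the highest mean level of all clusters, at 167.3, 443.4 and 364.2 CPM in control mice and 481.3, 586.0 and 687.9 CPM in stress mice. Its range overlapped that of DC cluster 20, the next cluster, at 0 to 617.7 CPM. The stress values of cluster 11 lay above all control values.

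Cxcl10, which acts on the same receptor, had its highest mean level in monocytes (99.1 to 714.9 CPM) and ECs (297.8 to 522.4 CPM), whose ranges overlapped. In control mice alone the mean was higher in ECs (411.6 CPM) than in monocytes (320.2 CPM). Within ECs it was concentrated in cluster 8, with 1091, 1231 and 1584 CPM in control mice and 1556, 1145 and 1117 CPM in stress mice, while the larger endothelial cluster 2 held 28.1 to 163.3 CPM. No other cluster had as high a mean, and 10% of ECs carried 71.4% of the endothelial Cxcl10 UMIs. Cells with a Cxcl9 UMI more often had a Cxcl10 UMI than cells without one, at 48.3% and 17.3% of thinned ECs, 37.5% and 14.4% of monocytes, and 46.5% and 12.7% of DCs. In ECs and monocytes this order held in each of the 6 mice.

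Cxcl12, a stromal ligand that holds CXCR4-bearing cells in place, was far higher in the 128 annotated HSCs than in any other type. The level in HSCs was 90.0, 86.2 and 25.9 CPM in control mice, resting on 27, 6 and 2 UMIs, and 295.2, 209.6 and 219.2 CPM in stress mice, resting on 125, 59 and 178 UMIs. All stress values lay above the control values, but control mice 2 and 3 had 6 and 8 HSCs and the type was not tested. Of the HSCs, 50.8% (41.8% to 59.7%) had a Cxcl12 UMI, against 0.306% of ECs and 0 of 2490 NK/T cells, which allows a share of cells with a UMI of up to 0.120%. The median depth was 13592 UMIs in HSCs, 4538 in ECs and 4403 in NK/T cells, and these shares describe detection of a UMI, not expression. ECs, which express Cxcl12 in many tissues, held 0.28 to 1.84 CPM here.

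Cxcl16, which is anchored in the membrane, was spread over monocytes (58.1 to 230.6 CPM), DCs (51.3 to 185.2 CPM), HSCs (13.3 to 155.6 CPM) and ECs (41.9 to 90.1 CPM), with overlap between each pair of neighbors in this order. It was at most 19.7 CPM in inflammatory myeloid cells, the next type, and at most 7.75 CPM in NK/T cells. DC cluster 20 (143.0 to 400.2 CPM) and monocyte cluster 11 (211.7 to 364.3 CPM) were the highest clusters. In cluster 11 the stress values, 354.5, 364.3 and 325.2 CPM, lay above the control values, 211.7, 311.9 and 213.5 CPM. The UMIs were spread over many cells, as 10% of ECs held 49.9% of the endothelial Cxcl16 UMIs.

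A cell type of low level can still hold many of a ligand's UMIs if its cells are many or deep, whether or not it is their source. Tumor cells, with a median of 27716 UMIs per cell, held 46.3% ± 10.9 (SD, n = 6 mice) of the Cxcl1 UMIs of a mouse, 28.4% ± 12.5 of Cxcl10 and 30.6% ± 13.1 of Cxcl16. Of thinned tumor cells 1.39% had a Cxcl1 UMI and 2.06% a Cxcl10 UMI, against 0.222% and 2.44% of thinned B cells, so the Cxcl10 UMIs of tumor cells are not read as expression. Inflammatory myeloid cells and monocytes together held most of Cxcl2, at 53.2% ± 15.3 and 35.8% ± 14.4. For Cxcl2 the inflammatory myeloid share was 66.3% ± 6.5 in control and 40.2% ± 5.8 in stress mice, and the monocyte share was 23.5% ± 6.7 and 48.1% ± 4.7 (n = 3 each). Of Cxcl9, ECs held 61.9% ± 25.4 in control and 24.5% ± 11.9 in stress mice, and monocytes held 29.2% ± 22.8 and 55.4% ± 6.1. The EC share of Cxcl10 was 44.8% ± 10.7 in control and 32.5% ± 11.7 in stress mice, and the HSC share of Cxcl12 was 42.1% ± 8.0 and 82.0% ± 12.95.

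**Figure D2:**
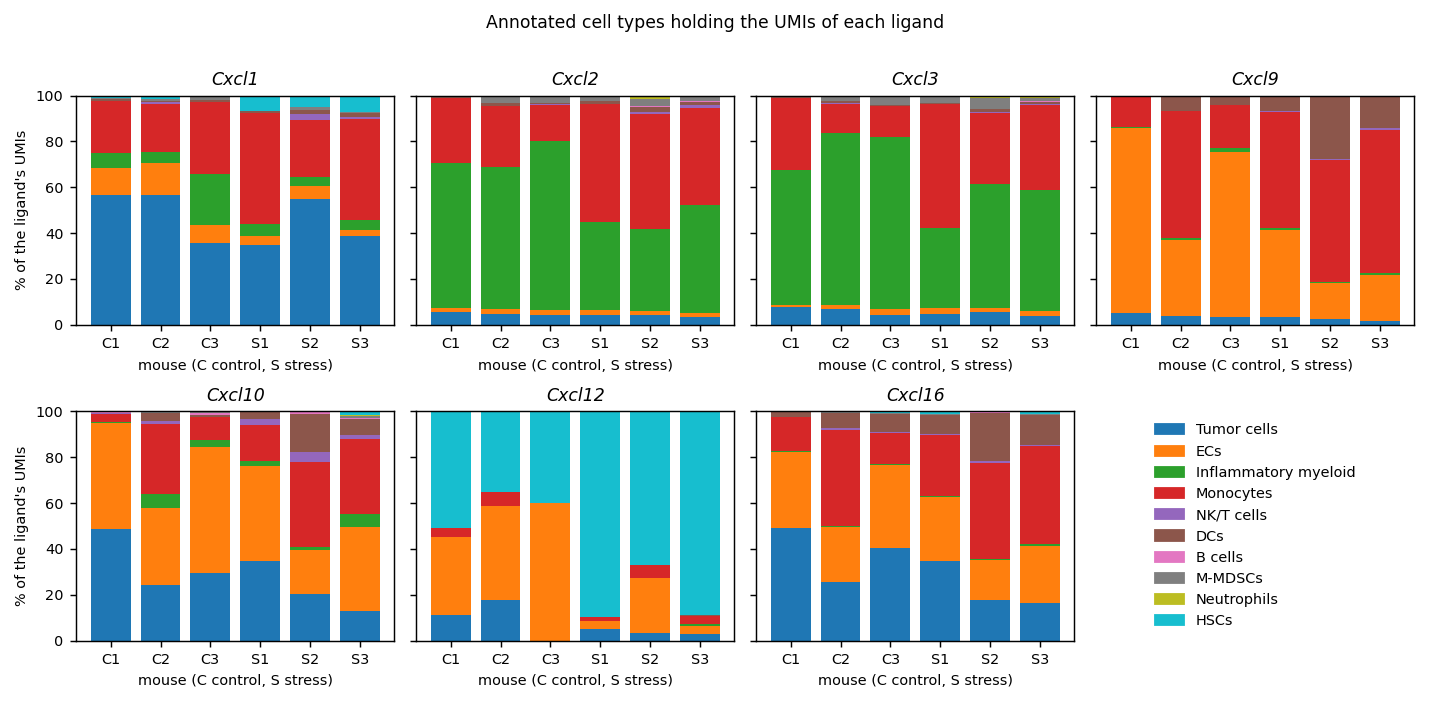
Share of the UMIs of each ligand held by each annotated cell type, in percent of the UMIs of that ligand in a mouse, with 1 stacked bar per mouse for the control and stress mice. Tumor cells take a large part of Cxcl1, Cxcl10 and Cxcl16, inflammatory myeloid cells and monocytes take nearly all of Cxcl2 and Cxcl3, and HSCs most of Cxcl12 in the stress mice.

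Summed over all cells of a mouse, all 7 ligands had a higher mean in stress than in control mice, and 2 of 7 had groups that did not overlap, against 35.5% of all genes with at least 10 UMIs. For Cxcl2 and Cxcl3 this direction turned without tumor cells, to a log2 ratio of -0.46 and -0.74, and with equal weight for each cell type, to -0.18 and -0.17. In these sums, fewer cells of a type and less RNA per cell cannot be told apart, and tumor cells made up 57.5% ± 11.2 of control and 44.2% ± 14.4 of stress cells. Cxcl1 was 12.2, 28.1 and 17.4 CPM in control and 39.5, 29.2 and 65.7 CPM in stress mice, a 2.33-fold difference of means (exact two-sided permutation test, p = 0.1, the smallest that 3 against 3 mice allow). Without the tumor cells the groups overlapped, with p = 0.4 by the same permutation test. Cxcl12 was 0.134 ± 0.133 CPM in control and 0.924 ± 0.393 CPM in stress mice, without overlap, a 6.91-fold difference of means (permutation p = 0.1). The Cxcl12 sums rest on 53, 17 and 5 UMIs in control and 139, 88 and 200 in stress mice. Captured HSCs, its highest type, numbered 23, 6 and 8 in control and 26, 15 and 50 in stress mice. Without the tumor cells its groups overlapped too, at 3.86-fold (permutation p = 0.2), whereas with equal weight for each cell type they did not, at 3.55-fold (permutation p = 0.1). Leaving out control mouse 1 raised its log2 ratio from 2.79 to 3.96. The permutation p of the other 5 was 0.2 to 0.8, with means of 674 and 880 CPM for Cxcl2, 73.9 and 82.9 CPM for Cxcl3, 12.8 and 35.4 CPM for Cxcl9, 59.8 and 98.0 CPM for Cxcl10, and 12.8 and 29.5 CPM for Cxcl16 in control and stress mice. With equal weight for each cell type the groups of Cxcl16 did not overlap, at 1.49-fold (permutation p = 0.1). With each mouse left out the log2 ratio was 1.01 to 2.15 for Cxcl9 (1.46 with all mice), 0.47 to 1.07 for Cxcl10 (0.71) and 0.93 to 1.83 for Cxcl16 (1.21). The highest value of each was that without control mouse 2.

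The stress comparison was then made within each cell type, with edgeR's quasi-likelihood test over all genes of the type and Benjamini-Hochberg adjustment. Of 56 pairs of ligand and cell type in the 8 types with at least 10 cells in every mouse, 41 passed the filter on low counts, and Cxcl12 passed it in none. Called were 2 of 6 ligands in DCs, where 2.64% of all genes were called, and 1 of 5 in NK/T cells, where 0.857% were. None was called in tumor cells (background 21.4%), ECs (0.213%), inflammatory myeloid cells (0%), monocytes (0.122%), B cells (0.483%) or M-MDSCs (0.561%). At an unadjusted p under 0.05 there were 8 of 41 pairs, against 17.4% of all pairs of gene and cell type, and all 8 were higher under stress, 3 of them in DCs, 2 in NK/T cells and 1 each in tumor cells, inflammatory myeloid cells and monocytes, and DESeq2 called 1 ligand in each of NK/T cells and DCs and none elsewhere. Groups did not overlap in 7 of 41 pairs, 6 of them higher under stress, against 22.4% of all pairs of gene and cell type. The median log2 fold change of the tested ligands was 0.99 in DCs, 1.39 in NK/T cells, 0.80 in monocytes and -0.29 in ECs, where that of all genes was between -0.02 and 0.00.

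**Figure D3:**
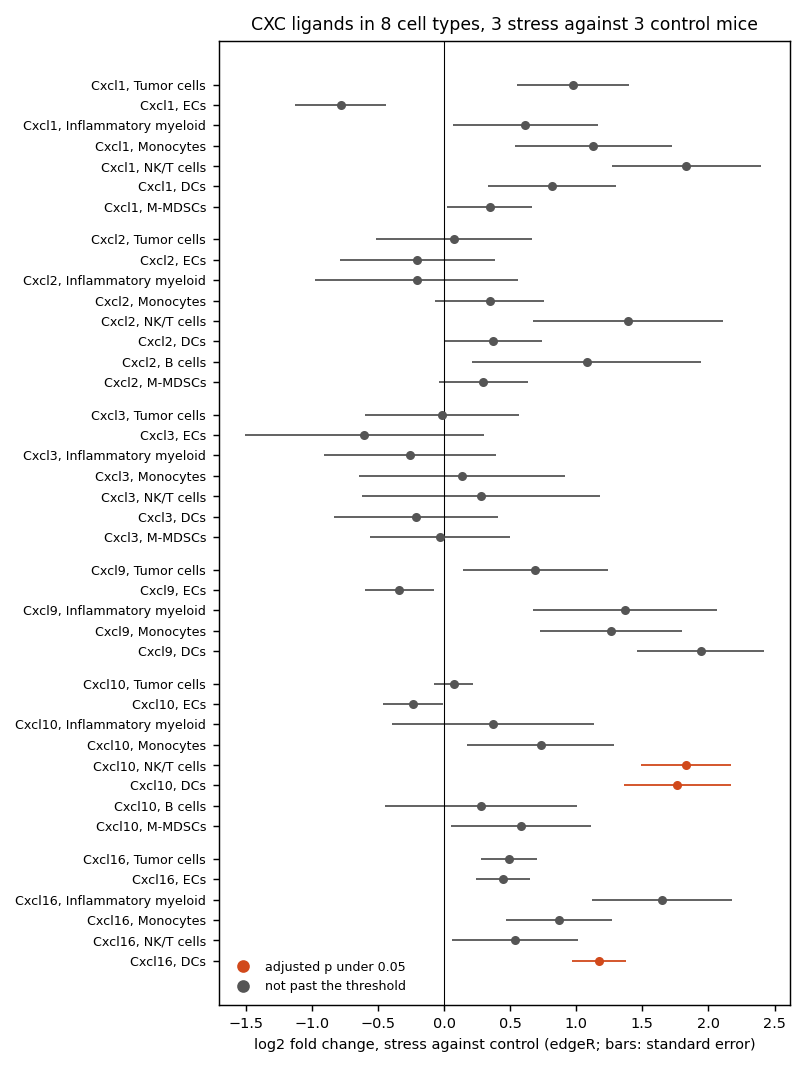
Log2 fold change, stress against control, of each tested ligand in each tested cell type, with bars of 1 standard error from edgeR, orange points for adjusted p under 0.05 and gray points for the rest. Cxcl16 is right of 0 in all 6 types tested, and the 3 orange points are Cxcl10 in NK/T cells, Cxcl10 in DCs and Cxcl16 in DCs.

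In DCs, which carry antigen to T cells, Cxcl10 was 37.2, 186.5 and 64.3 CPM in control mice and 219.3, 453.4 and 300.5 CPM in stress mice. Control mouse 2 was the highest control, and the groups did not overlap. The log2 fold change was 1.76 ± 0.41 (SE), with an edgeR adjusted p of 0.0409. The call was lost when any mouse other than control mouse 2 was left out, with an adjusted p of 0.129 and 0.131 for control mice 1 and 3 and of 0.0535, 0.0874 and 0.126 for stress mice 1, 2 and 3, and it was lost with DESeq2 (0.145). It was also lost without called doublets (0.168) and in cells thinned to 1000 UMIs (0.213), while the log2 fold change was between 1.46 and 2.69 under every alternative run.

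Cxcl16 in DCs was 51.3, 92.7 and 103.2 CPM in control mice and 184.0, 165.8 and 185.2 CPM in stress mice. The groups did not overlap, and the log2 fold change was 1.17 ± 0.20 (edgeR adjusted p = 0.0113). DESeq2 gave 1.17 with an adjusted p of 3.07e-05. Without stress mouse 3 the adjusted p was 0.0614, and it was 0.209 without called doublets and 0.108 in thinned cells. The log2 fold change was 0.99 to 1.34 with each mouse left out, 0.83 without called doublets and 1.01 in thinned cells. Cxcl9 in DCs was 3.54, 91.4 and 60.6 CPM in control mice and 100.8, 259.3 and 264.3 CPM in stress mice. Its groups did not overlap either, and the log2 fold change of 1.94 ± 0.48 did not pass (adjusted p = 0.0545). Without control mouse 2 or without stress mouse 1 it passed, at 0.0236 and 0.0474.

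The annotated DCs were made of clusters 19 and 20, whose mixture differed between the groups. Cluster 20 held 25.3%, 40.5% and 25.9% of the DCs of control mice and 50.4%, 63.3% and 52.2% of those of stress mice. It carried the DC genes, with a mean of 744 CPM of Ccr7, a migration receptor, and 6695 CPM of H2-Aa, an MHC class II chain, against 39 and 443 CPM in cluster 19. Cluster 19 instead held the tumor keratin Krt18 at 338 CPM and Afp at 65 CPM, and 36.8% of its cells were called doublets, against 2.19% in cluster 20. All 3 ligands were higher in cluster 20 than in cluster 19 in the mean over mice, but not in control mouse 1 for Cxcl9 (0 and 4.95 CPM) or Cxcl10 (6.22 and 49.5 CPM).

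Within cluster 20, Cxcl16 was 143.0, 266.0 and 400.2 CPM in control and 312.7, 367.3 and 379.0 CPM in stress mice, so the groups overlapped and the log2 fold change was 0.45 ± 0.30 (edgeR adjusted p = 0.538). Within cluster 19 it was 14.8, 34.0 and 19.2 CPM in control and 67.3, 45.2 and 47.5 CPM in stress mice, and the fold change was 1.08 on the log2 scale (adjusted p = 0.200). Cxcl10 in cluster 20 was 6.22, 331.8 and 189.9 CPM in control and 388.7, 1026 and 574.0 CPM in stress mice, where control mouse 1 had a single UMI. The groups of Cxcl10 did not overlap there, and the log2 fold change of 1.88 ± 0.59 did not pass (adjusted p = 0.202). In cluster 19 its log2 fold change was 0.38 (adjusted p = 0.876). Cxcl9 had log2 fold changes of 1.38 in both clusters (adjusted p 0.391 and 0.429). With equal weight for both clusters in each mouse, an alternative chosen after seeing the data, the log2 ratio of means was 0.47 for Cxcl16, 1.61 for Cxcl10 and 1.42 for Cxcl9 (exact permutation p 0.3, 0.2 and 0.3). The summed markers of NK/T cells in the DCs were also higher in stress mice, at 65.3 to 106.7 CPM against 0 to 33.7 CPM, with 5 of 6 markers higher in every stress mouse and none at 0. Those of inflammatory myeloid cells in the DCs were 451.3 to 1114 CPM in control and 1693 to 2146 CPM in stress mice, with none at 0, and in cluster 20 they were 777.1 to 2317 CPM and 2779 to 3316 CPM. In the DCs 2 of 6 of these markers had a higher mean under stress, and 1, Il1b, was higher in every stress mouse, at 355.8 to 1002 CPM in control and 1616 to 1964 CPM in stress mice, while the means of the neutrophil genes S100a8, S100a9, Csf3r and Cxcr2 were lower. The part of both lists in the result was not tested.

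**Figure D4:**
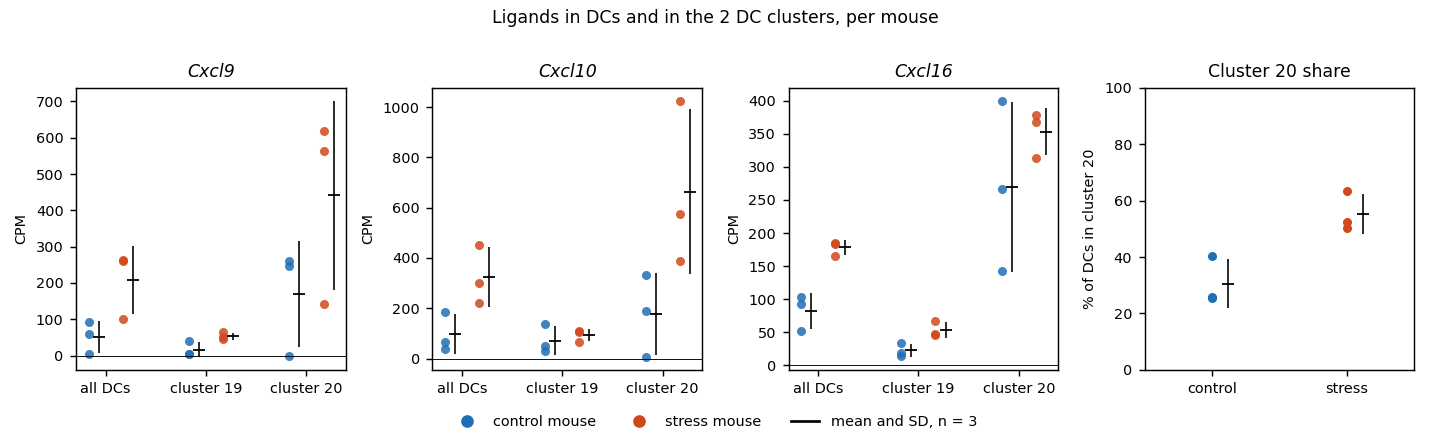
Cxcl9, Cxcl10 and Cxcl16 in the 2 clusters of annotated DCs, with CPM on the y axis, points for single mice (blue control, orange stress) and black bars for the mean ± SD of 3 mice. The mean levels are higher in cluster 20 than in cluster 19, although control mouse 1 is lower there for Cxcl9 and Cxcl10, and the stress and control mice overlap for Cxcl16 in cluster 20 but not for Cxcl10 there.

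In NK/T cells Cxcl10 was 16.3, 49.1 and 10.4 CPM in control mice and 116.4, 116.4 and 87.9 CPM in stress mice. The groups did not overlap, and the log2 fold change was 1.83 ± 0.34 (edgeR adjusted p = 0.0254; DESeq2 0.0461). The adjusted p was 0.0159 without called doublets and 0.0119 in thinned cells, but leaving out control mouse 1, control mouse 3 or stress mouse 1 gave 0.118, 0.0743 and 0.0881, and the log2 fold change was 1.53 to 3.13 with each mouse left out. Among cells thinned to 1000 UMIs, the share with a Cxcl10 UMI was 0%, 4.04% and 0.794% in control and 6.74%, 8.71% and 5.88% in stress mice. Over all mice it was 5.92% (5.02% to 6.92%) in NK/T cells, 2.44% (1.23% to 4.33%) in B cells and 2.06% (1.90% to 2.23%) in tumor cells, at median depths of 4403, 4720 and 27716 UMIs before thinning. By CPM, B cells held 80.6 ± 67.9 in control and 96.0 ± 83.1 in stress mice, and NK/T cells 25.3 ± 20.8 and 106.9 ± 16.4. No Cxcl10 level of NK/T cells above that of B cells is therefore read from these values.

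Markers of other cell types differed between the same groups. The summed DC markers in NK/T cells were 34.7 to 44.9 CPM in control and 117.0 to 182.9 CPM in stress mice, with all 6 means higher and 2 of 6 markers higher in every stress mouse. The sum includes Ccr7, which naive T cells also express, at 26.0 to 32.7 CPM in control and 57.5 to 122.0 CPM in stress mice. The summed monocyte markers were 57.2 to 181.7 CPM and 98.5 to 217.3 CPM, with 0 of 7 markers separating the groups, and no marker of either list was at 0. Their part in the Cxcl10 difference was not tested. Relative to the monocytes of the same mouse, an alternative chosen after seeing the data, the log2 ratio of stress to control was 1.24 (exact permutation p = 0.2).

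In the cells annotated as monocytes, Cxcl9, Cxcl10 and Cxcl16 had higher means under stress without passing the test. Cluster 11 of this class held C1qa at 1930 CPM and the monocyte marker Ly6c2 at 119.6 CPM, against 65.7 and 569.3 CPM in cluster 12. The class may therefore mix monocytes with macrophages, and its levels are those of the annotated class. Cxcl9 was 52.7, 283.7 and 92.5 CPM in control and 244.6, 358.0 and 386.1 CPM in stress mice, which overlapped (log2 fold change 1.26 ± 0.54, edgeR adjusted p = 0.405). Cxcl10 had 0.73 ± 0.55 (adjusted p = 0.618) and Cxcl16 0.87 ± 0.40 (adjusted p = 0.438). The summed markers of NK/T cells in monocytes were 1.60 to 44.6 CPM in control and 48.9 to 99.7 CPM in stress mice, with 3 of 6 markers higher in every stress mouse and none at 0. Those of inflammatory myeloid cells were 2335 to 4353 CPM and 5155 to 8291 CPM, with 4 of 6 means higher and 2 of 6 markers higher in every stress mouse. Il1b, 1 of these markers, had means of 3905, 5077 and 4356 CPM in monocyte clusters 11, 12 and 13. The summed neutrophil markers, a list that shares S100a8, S100a9 and Csf3r, went the other way. They were 513.4 to 767.0 CPM in control and 107.8 to 405.6 CPM in stress mice, with 1 of 6 means higher. The part of these lists in these differences was not tested. Control mouse 2 lay within the stress range of Cxcl10 and Cxcl16, and without it Cxcl9 and Cxcl16 of monocytes and Cxcl1 and Cxcl16 of tumor cells were among 9 pairs called. Cluster 11 made up 25.5%, 51.7% and 18.3% of monocytes in control mice 1, 2 and 3, and 41.6%, 41.5% and 38.7% in the stress mice. Cxcl9 had means of 455.0, 106.7 and 39.7 CPM in clusters 11, 12 and 13, and Cxcl16 had 296.8, 43.3 and 74.5 CPM. Within these clusters the log2 fold change was 0.91 to 2.21 for Cxcl9 and 0.57 to 1.36 for Cxcl16, and none passed. The part of this mixture in the monocyte differences was not tested. Of the ELR ligands, Cxcl1 had 1.13 ± 0.60, Cxcl2 0.35 ± 0.41 and Cxcl3 0.14 ± 0.78 in monocytes (adjusted p 0.489, 0.755 and 0.954). The value of Cxcl1 there was 0.26 to 1.58 with each mouse left out. In inflammatory myeloid cells Cxcl1 had 0.61 ± 0.55, Cxcl2 -0.21 ± 0.77 and Cxcl3 -0.26 ± 0.65 (adjusted p 0.994 for each). There Cxcl1 was 0.03 to 1.21 with each mouse left out, and leaving out control mouse 3 turned Cxcl2 to 0.12 and Cxcl3 to 0.53.

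In ECs, the lining of the tumor vessels, the means of Cxcl9 and Cxcl10 were not higher under stress. Endothelial Cxcl10 was 297.8, 414.5 and 522.4 CPM in control and 333.3, 311.8 and 424.8 CPM in stress mice. These values overlapped (log2 fold change -0.24 ± 0.23, edgeR adjusted p = 0.647), and 5 of 6 tested endothelial clusters had a negative log2 fold change. The within-mouse value of log2(CPM + 1) of Cxcl10, DCs minus ECs, rose by 2.19, from a mean of -2.37 in control to -0.19 in stress mice. That of NK/T cells minus ECs rose by 2.50, from -4.23 to -1.73. Neither had overlap of the groups (exact permutation p = 0.1 for each, the smallest possible). The means were below 0 in both groups, so the mean gap to the higher level of ECs narrowed under stress. Minus monocytes the value rose by 1.03 for DCs, from -1.69 to -0.66 (p = 0.1), and by 1.34 for NK/T cells, from -3.54 to -2.20 (p = 0.2), by the same permutation test. These gaps narrowed as well. For Cxcl16 the value of DCs minus monocytes rose by 0.15, from -0.33 to -0.18 (permutation p = 0.9), and that of DCs minus ECs by 0.67, from 0.48 to 1.15 (p = 0.1). Of these 7 changes, with the Cxcl1 one described at the close, none can pass 0.05 with 3 mice against 3. The others were computed for the pairs of ligand and cell type called above. The groups of those pairs already did not overlap in the same data, so these permutation p-values are not read as tests.

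Among the tested types and clusters, Cxcl16 was the ligand with the most uniform direction. Its log2 fold change was positive in 6 of 6 tested cell types, from 0.45 in ECs to 1.65 in inflammatory myeloid cells. It was positive in 21 of 21 tested clusters, from 0.27 to 1.65, although clusters share their mice and only the DC total was called. Of the types not tested for it, HSCs (104.2 and 75.3 CPM in control and stress mice) and neutrophils (7.14 and 1.58 CPM) had a lower mean under stress. M-MDSCs (3.99 and 6.86 CPM) and B cells (3.09 and 3.77 CPM) had a higher mean. Inflammatory myeloid cells held little of it, at 4.58, 10.8 and 2.87 CPM in control and 17.4, 19.7 and 15.4 CPM in stress mice, without overlap (edgeR adjusted p = 0.994, unadjusted p = 0.00996). In tumor cells all 8 tested clusters were positive, from 0.34 to 0.72, and the total was 4.01, 6.78 and 4.23 CPM in control and 6.53, 7.66 and 9.08 CPM in stress mice. The groups of tumor cells overlapped through control mouse 2. All these tumor cell values lay within the range of B cells, at 0 to 9.27 CPM, so they are not read as a level above background. The summed EC markers in tumor cells were 21.5 to 27.0 CPM in control and 28.7 to 40.3 CPM in stress mice, with 6 of 7 means higher, 1 of 7 markers higher in every stress mouse and none at 0, and their part was not tested. Over all ligands 125 pairs of ligand and cluster were tested and 1 was called, Cxcl10 in cluster 10, which is the NK/T cells, against 3.24% of all pairs of gene and cluster.

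Cxcl1 in tumor cells was 7.62, 19.3 and 7.08 CPM in control and 15.7, 21.2 and 36.8 CPM in stress mice. The log2 fold change of 0.98 ± 0.43 did not pass (edgeR adjusted p = 0.137), and 8 of 9 tested tumor clusters were positive. In ECs Cxcl1 was lower in every stress mouse, at 16.2 to 22.9 CPM against 23.5 to 56.4 CPM (log2 fold change -0.78 ± 0.35, adjusted p = 0.332), and none of the 4 tested endothelial clusters was above 0. Cluster 8, with a mean of 74.1 CPM of Cxcl1 against 8.70 CPM in cluster 2, was 28.4% to 30.2% of control and 18.0% to 25.3% of stress ECs, and cluster 15 (13.4 CPM) was 1.73% to 5.35% and 11.3% to 23.1%. The part of this mixture in the endothelial difference was not tested.

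The receptors of these ligands had distributions of their own. Cxcr2, the receptor of the ELR ligands, was highest in inflammatory myeloid cells (154.2 ± 70.1 CPM) and neutrophils (151.0 ± 94.9 CPM). The inflammatory myeloid cells, which had the highest Cxcl2 level, also carried neutrophil markers, with a summed level of 17027 to 26436 CPM in control and 17422 to 35788 CPM in stress mice. Among these, Csf3r, the receptor of granulocyte colony-stimulating factor, was higher in them than in the annotated neutrophils (500.3 and 117.4 CPM) and Retnlg was lower (2352 and 11447 CPM). Cxcr3 was highest in NK/T cells, with 42.9, 61.2 and 39.4 CPM in control and 28.7, 32.1 and 23.7 CPM in stress mice. These groups did not overlap, and the log2 fold change of -0.75 ± 0.21 did not pass (edgeR adjusted p = 0.149). Cxcr6, the partner of Cxcl16, was at 199.3 ± 42.2 CPM in NK/T cells and at most 12.6 CPM on average elsewhere. Cxcr4 in NK/T cells was 63.3, 81.1 and 94.97 CPM in control and 154.9, 102.3 and 165.2 CPM in stress mice, again without overlap (log2 fold change 0.87 ± 0.22, adjusted p = 0.109). The decoy receptor Ackr1 was an endothelial gene (31.6 to 236.6 CPM), and Ackr3, the scavenger of CXCL12, was shared by ECs (102.8 ± 18.4 CPM) and tumor cells (96.6 ± 14.0 CPM).

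**Figure D5:**
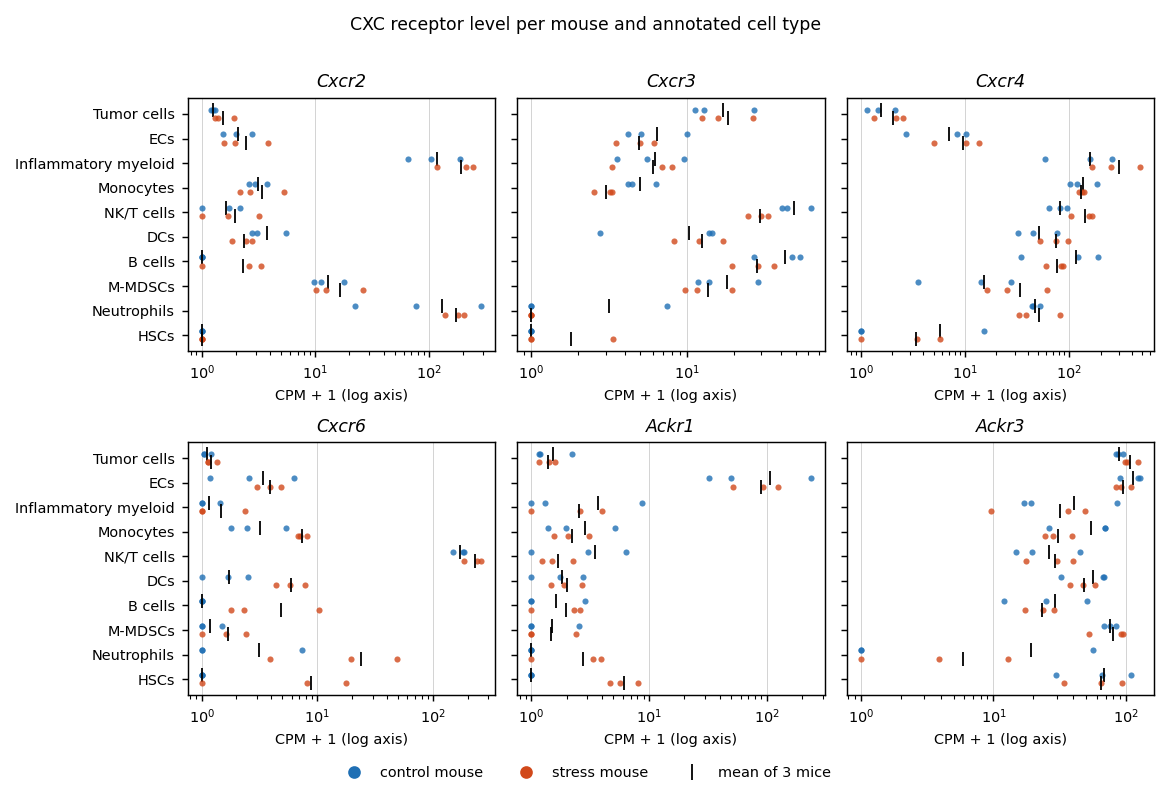
Levels of the CXC receptors in the 10 cell types, with CPM plus 1 on a log axis, each point 1 mouse (blue control, orange stress) and black ticks the mean of the 3 mice of each group. Cxcr6 stands out in NK/T cells, Cxcr2 in inflammatory myeloid cells and neutrophils, and Ackr1 in ECs.

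Over 43 listed genes of the pathway (receptors, other CXC ligands, NF-kB and interferon gamma response genes, and processing enzymes), 236 pairs of gene and cell type were tested, 5 were called higher and 1 lower, against 4.97% of all pairs of gene and cell type. Of the interferon gamma response genes, 1 of 64 pairs was called, Irf8 in DCs, a transcription factor of DC development, at 88.5, 197.0 and 184.7 CPM in control and 285.6, 415.1 and 399.8 CPM in stress mice, without overlap (log2 fold change 1.30 ± 0.24, edgeR adjusted p = 0.0144). All 9 tested genes of that list were higher in DCs, 7 at an unadjusted p under 0.05 against 17% of all genes tested in DCs, with a median log2 fold change of 0.98 against -0.02 over all genes. Of the NF-kB response genes, 2 of 85 pairs were called, Il1b (1.54 ± 0.27, adjusted p = 0.0122) and Ptgs2, the prostaglandin synthase (1.44 ± 0.30, adjusted p = 0.0280), both in DCs, where 2.64% of all genes were called. The share of cluster 20 among DCs differed between the same groups, as did the summed DC markers (1904 to 2548 CPM in control and 3574 to 3883 CPM in stress mice) and the summed inflammatory myeloid markers, most of whose level in DCs is Il1b itself, and their part in these values was not tested. Ifng itself was 202.3, 212.6 and 145.9 CPM in control NK/T cells and 213.3, 198.0 and 149.2 CPM in stress NK/T cells, nearly the same range.

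The other calls were in tumor cells, where 21.4% of all genes were called. Cxcr5 (log2 fold change 1.05 ± 0.19, edgeR adjusted p = 0.0112) was 0.74 to 0.95 CPM in control and 1.79 to 2.18 CPM in stress mice. Cxcl17 (0.83 ± 0.24, adjusted p = 0.0426) was 1.84 to 2.99 CPM and 3.53 to 5.59 CPM. Adam10, which sheds CXCL16, fell by 0.29 on the log2 scale of the normalized edgeR fit (SE 0.09, adjusted p = 0.0476). Its mean CPM, which is not normalized between mice in this way, was 64.1 in control and 57.9 in stress mice, a smaller fall, and its groups overlapped.

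The genes most like each ligand over the 28 clusters were found among 7181 genes by Pearson r of log2(CPM + 1) of cluster means, as a description in which all points share the same 6 libraries. For Cxcl2 they were Slc7a11 (r = 0.98), Cd14, Fcgr3, C5ar1 and Ccl6, and for Cxcl3 Clec4d (0.98), Arg2, Acod1, Clec4e and C5ar1. Cxcl2 and Cxcl3 had r = 0.96 with each other, and Cxcl1 had 0.54 with Cxcl2. For Cxcl1 the leading genes were P4hb (0.84), Hmox1, Saa3, Ecm1 and Ccl2. Cxcl9 was most like Batf3 (0.95), Tmem51, Ifi207, Rasgef1b and Gngt2, and Cxcl10 like Gbp5 (0.94), Irf1 (0.93), Gna13, Irgm1 and Icam1, and the pair had r = 0.92. Cxcl12 followed the stromal genes Cthrc1 (0.98), Sparcl1, Dcn, Sfrp1 and Rarres2. Cxcl16 was most like Qpct (0.93), Olfm1, Lgmn, Tnfsf12 and Sdc3, and had r = 0.89 with Cxcl9.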

How the data were processed

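Tumor tissue of 3 control and 3 stress mice was sequenced as 1 library per mouse. The deposited matrices hold whole UMI counts by gene and cell barcode, made by the authors with Cell Ranger (mm10, versions 9.0.0 for control and 7.1.0 for stress, per the file headers) and a table of clusters and cell types. Gene annotation and the treatment of intronic reads: not given in the sources used here.

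UMI counts were summed per mouse over cell types and clusters with at least 10 cells in every mouse (8 of 10 types, 25 of 28 clusters) and compared by the quasi-likelihood test of edgeR 4.0.16 (R 4.3.3; TMM, filterByExpr, Benjamini-Hochberg over all genes of the type or cluster, threshold 0.05), after the step had been tested on simulated data. DESeq2 1.42.0 was an alternative. Doublets were called per library with Scrublet in scanpy 1.11.5 and kept, except in 1 alternative. Thinning to 1000 UMIs left out 1274 control and 1041 stress cells. Single values per mouse were compared by exact two-sided permutation tests over all groupings of the mice, in Python 3.11.15 with numpy 2.4.6. There was no adjustment over the 7 ligands, since no value could pass 0.05. Nothing beyond the mouse numbers says whether libraries were made together, and p-values measure the spread between 3 mice per group. Shares have exact 95% binomial intervals from scipy 1.17.1, and the limit for a count of 0 is 3 counts.

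Named were the 7 ligands, the listed pathway genes and cell type markers, the 5 genes most like each ligand over clusters (at least 50 CPM in a cluster), and the clusters of highest level. A full test is given in the 2 tested types of highest level and wherever a ligand was called and other types were named after their values were seen. The members and lists were chosen with earlier results of these data known. Alternatives were RLE normalization, DESeq2, the replicate number as a block, no filter on low counts, each mouse left out, no called doublets, thinned cells, leaving out clusters 15, 13 and 19, a pseudocount of 10, sums without tumor cells and equal weight of cell types. Same-numbered mice had a correlation over 0.1 for every number in 1 of 8 cell types, the monocytes. Of the libraries of a cell type, 15 of 24 correlated best with their own number among the 3 numbers of the other group. Correlations of same-numbered mice were -0.13 to 0.67, and the only negative one was in tumor cells. The numbers were not taken as pairs, as no source used here says that they share a litter or day, and the block was run as an alternative.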

Additional observations from a re-analysis of the deposited data

Results flagged for a closer look

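The log2 fold change of Cxcl1 had opposite signs in NK/T cells and ECs, although neither passed the test (edgeR adjusted p = 0.192 and 0.332). In NK/T cells Cxcl1 was 0, 7.53 and 0 CPM in control and 9.74, 15.7 and 21.6 CPM in stress mice, without overlap (log2 fold change 1.83 ± 0.56), and in ECs it was 24.8, 56.4 and 23.5 CPM in control and 22.9, 22.9 and 16.2 CPM in stress mice. The within-mouse value of log2(CPM + 1), NK/T cells minus ECs, was larger by 3.59 in stress mice, and by 1.55 with a pseudocount of 10. The pair was picked because its groups separated in opposite directions in the 2 types. The groups of this value could therefore not overlap, and its exact permutation p of 0.1 was fixed by that choice and is not read as a test. The NK/T values rest on few UMIs, as 0.689% of thinned NK/T cells and 0.222% of thinned B cells had a Cxcl1 UMI, so a level above background was not detectable at this depth.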

How the results depend on the processing

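Of the pairs of ligand and cell type, 3 were called, and the number was 12 without a filter on low counts, 1 without called doublets, 1 in thinned cells, 1 without clusters 15, 13 and 19 (0 in the 3 types that hold them, the other types as they stand), and 1 to 9 when each mouse was left out, with 9 without control mouse 2. RLE normalization gave 3 and DESeq2 2. Within clusters 1 pair was called, against 5 with DESeq2 and 0 to 17 without single mice, with 17 without control mouse 2. Of the pathway pairs 6 were called, against 15 with DESeq2, 33 without the filter, 3 without those clusters and 2 to 13 without single mice. No source used here says that mice of the same number share a litter or day. With this number as a replicate block 4 pairs of ligand and cell type, 12 of ligand and cluster and 17 pathway pairs were called, the fourth pair being Cxcl9 in DCs, and 15 of 24 libraries of a cell type correlated best with their own number.

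Directions turned for small changes. The log2 fold change without single mice was -0.57 to 0.12 for Cxcl2 and -0.64 to 0.53 for Cxcl3 in inflammatory myeloid cells, and -0.36 to 0.65 for Cxcl3 in monocytes, where leaving out called doublets gave -0.0105. Summed over all cells, the log2 ratio of Cxcl2 was -0.46 without tumor cells, -0.18 with equal weight of cell types and -0.65 to 0.86 without single mice, and that of Cxcl3 was -0.74, -0.17 and -0.88 to 1.21. The change of Cxcl16 under stress in DCs minus monocytes was -0.26 to 0.73 without single mice. The cause was not tested. Over 14 results of single ligands in cell types, 152 of 182 alternative values kept direction and side of the threshold, 16 lost and 6 gained the call, 5 turned direction and 3 moved by more than their standard error. M-MDSCs could not be fitted without called doublets, since a mouse then had fewer than 10 cells. Precision is limited by 3 mice per group and, for Cxcl12, by the few HSCs.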

Other observations

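Endothelial cluster 24, which held 1.07% to 2.77% of the ECs of a mouse, carried Cxcl10 at 169.0 to 755.0 CPM beside the myeloid gene Acod1 at 280.8 to 692.5 CPM, and 89.1% of its 229 cells were called doublets. Cluster 8, the endothelial cluster of highest Cxcl10, held 2.25% called doublets and Acod1 at 2.93 to 19.1 CPM. It made up 28.4% to 30.2% of the ECs of control mice and 18.0% to 25.3% of those of stress mice, so the cluster with most endothelial Cxcl10 was a smaller share of ECs in every stress mouse, while its Cxcl10 level was 1091 to 1584 CPM in control and 1117 to 1556 CPM in stress mice. Monocyte cluster 13, the highest in Cxcl1, Cxcl2 and Cxcl3 among monocytes, ranged from 23.1% to 57.6% of control and from 12.1% to 38.1% of stress monocytes. In that cluster Cxcl1 was 327.3, 388.4 and 420.7 CPM in control and 1643, 356.1 and 722.6 CPM in stress mice, with stress mouse 2 inside the control range.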
